A study of Canis lupus familiaris with 5 samples.

Results

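The transcripts described here encode the proteins of the small ribosomal subunit and the factors that start and carry out translation, in canine heart muscle with and without heart failure. Members were chosen by symbol: a probe set counts when the platform annotation gives it exactly 1 gene symbol and that symbol starts with RPS and a digit (S6 kinases left out), EIF or EEF, or is RPSA, FAU, NACA or TPT1. This gave 63 of 2416 genes, measured by 112 of 4653 probe sets. There were 58 probe sets for 28 small-subunit genes, 39 for 27 initiation factor genes, 10 for 6 elongation factor genes, 2 for NACA and 3 for TPT1. RPSA and FAU had no probe set with 1 symbol. The small-subunit class takes in RPS26P52, RPS27L and RPS4Y1 because their symbols meet the rule. The initiation class likewise takes in inhibitors of initiation, the kinase EIF2AK2 and the binding protein EIF4EBP1, of which EIF2AK2 was tested and enters the counts of the class. Of the 63 symbols, 60 stood in the RefSeq annotation of the dog genome (UU_Cfam_GSD_1.0), and EIF3C, RPS26P52 and RPS4Y1 did not.

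The small subunit binds messenger RNA and reads its codons, while the large subunit joins the amino acids. Initiation factors (eIFs) bring the first transfer RNA and the messenger to the small subunit: eIF2 carries the transfer RNA, eIF4 proteins bind and unwind the capped end of the messenger, eIF3 holds the complex together, and eIF5 and eIF5B let the large subunit join. Elongation factors (eEFs) then deliver each further transfer RNA (eEF1A, recharged by eEF1B) and move the ribosome along (eEF2). The messengers of ribosomal proteins and of many elongation factors start with a pyrimidine tract, the 5′ TOP motif, through which growth signals control their translation as a group. Protein synthesis in heart muscle follows the load on the heart and is raised in hypertrophy.

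The RNA was total RNA from dog myocardium, with no further description of region, breed, age or the way heart failure arose. There were 2 control arrays (control 1a and 2a) and 3 arrays from failing hearts (failing 1a, 1b and 2a). For 4 of the 5 arrays the RNA came from a pool of 3 dogs, and for control 1a no pool is stated. The sources used here do not say if failing 1a and failing 1b came from different pools. Each p-value therefore measures only how these arrays vary, which may be technical, and their number limits the precision. Values are the deposited linear intensities, scaled to a trimmed mean of 800 on every array, and 34.8% to 40.1% of probe sets per array lie below 0. Probe sets were designed for human genes, and how well each detects its dog counterpart was not tested. Failing 2a stood apart, with correlations across tested probe sets of 0.511 to 0.533 with the other arrays, against 0.666 to 0.798 among the others. It also had 28 of the 112 members below an intensity of 20, against 16 to 19 on each other array.

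Values beside the groups moved as well. The summed intensity of 10 cardiomyocyte markers, all above 20 on every array, was 172460 and 178979 on the control arrays and between 136110 and 152676 on the failing arrays. Of these 10, 4 lay below both control arrays on all failing arrays and 1 lay above. The sum of 7 endothelial markers was 4994 and 6110 against 6983 to 12929, and that of 7 fibroblast markers 2668 and 4226 against 4645 to 7823. Among endothelial markers 4 lay above control and 0 below, and among fibroblast markers 3 and 0. Over all tested probe sets, 18.2% lay above control and 11.5% below. PECAM1 and FN1 were not above 20 on all arrays. Such sums follow their brightest markers most. Smooth muscle and pericyte markers had 1 above control and 1 below, adipocyte markers 0 and 1, erythroid markers 1 and 0, and skeletal muscle markers 2 and 0. Of 3 leukocyte markers on the array, 0 were above 20 on all arrays, and ITGAM was below 20 on each. The 3′ to 5′ ratio of the GAPDH array control was 2.15 and 2.32 on the control arrays and 1.32 to 1.44 on the failing arrays. That of the actin control overlapped, with 0.0899 and 0.108 against 0.192, 0.0873 and 0.205. The part of these shifts in the results below was not tested. In such bulk RNA, fewer cells of a type and less RNA per cell cannot be told apart.

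Setting failing against control myocardium asks whether the parts of the translation apparatus differ together or apart in the failing heart. No single member passed the test. Of 45 tested small-subunit probe sets, 8 (17.8%) lay below both control arrays on all failing arrays, among them RPS6 (0.601-fold) and RPS28 (0.689-fold). Above control lay 2 (4.44%), against 11.5% below and 18.2% above over all tested probe sets. Without failing 2a, 12 (26.7%) lay below and 13 (28.9%) above, against 21.1% and 27.9%. Initiation factors and their regulators lay on both sides (EIF3E at 1.64-fold, EIF3C at 0.363-fold, and the inhibiting kinase EIF2AK2 at 2.42-fold). EEF1A1, the main delivery factor of elongation, was at 0.636-fold at 1 of its 3 probe sets. Each fold is the log2 fold change turned back to a ratio, so it compares geometric means and can differ slightly from the ratio of the printed means. Log2 intensities, with values under 20 set to that floor, were fitted with limma for the 2301 probe sets whose mean reached the median of all (140.1 as an intensity). Of the 112 members, 88 passed this filter. With Benjamini-Hochberg adjustment over all 2301 probe sets, 0 of the 88 were called, where 0.0869% of all tested probe sets were called (2 of 2301, both higher). At an unadjusted p under 0.05, 5 of the 88 members (5.68%) were higher and 1 (1.14%) was lower, against 6.13% and 3.35% of all tested probe sets (9.47% in either direction). The 5 include EIF4G2, whose control values were both set to the floor and which passed the filter only through the failing arrays. With all arrays the members' shares were thus no larger than those of the whole array. Without failing 2a, 12 of 85 members (14.1%) were higher and 4 (4.71%) lower, 18.8% in either direction, against 9.21%, 7.04% and 16.3% of all tested probe sets.

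The classes differed in where their differences lay. The median log2 fold change was −0.20 over 45 tested small-subunit probe sets, 0.13 over 29 of initiation factors and −0.59 over 9 of elongation factors, beside 0.11 over all 2301. In the small-subunit class 29 of 45 (64.4%) lay below 0, in the initiation class 13 of 29 (44.8%) and in the elongation class 7 of 9 (77.8%), against 43.9% of all tested probe sets. Dividing each array by its 75th percentile moved the median of all tested probe sets to −0.10 and quantile normalization moved it to −0.05. The small-subunit median stayed below 0 under both (−0.40 and −0.27), while the initiation factor median was −0.07 under the first and 0.07 under the second. The share of higher among all probe sets at an unadjusted p under 0.05 was 64.7%, and 44.7% with 75th percentile scaling, so signs of small differences depend on the scale.

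A factor that multiplies all intensities of an array shifts both classes alike, so it leaves the gap between them nearly unchanged. This does not hold for a shift that depends on brightness. The classes differ in median intensity, with 3274 for small-subunit and 1215 for initiation factor sets. The part of such a shift in the gap was not tested. Relative to the control mean, the small-subunit median was −0.19 on failing 1a, −0.07 on failing 1b and −0.19 on failing 2a. The initiation factor median was 0.13, 0.29 and 0.33 on the same arrays. The initiation factor median minus the small-subunit median was thus 0.32, 0.36 and 0.52 on the failing arrays and −0.05 and 0.05 on control 1a and 2a. The 2 control values mirror each other by construction, since values are relative to the control mean, so they give no independent spread. The values of the failing arrays all share that mean too. The difference of the class medians of log2 fold changes was 0.34, and 0.19 with failing 1a and 1b averaged as 1 sample. It was again 0.34 with 75th percentile scaling, which could hardly alter it, and 0.34 after quantile normalization, which could. The gap varied with brightness. At intensities of 936.6 to 2386 it was reversed, with medians of 0.05 (10 small-subunit sets) and −0.33 (10 initiation factor sets). Among brighter sets the medians were −0.22 (27) and 0.15 (8). Dimmer small-subunit sets had −0.99 (4) at 363.3 to 936.6 and −1.56 (4) at 140.1 to 363.2, where initiation factors had 0.59 (6) and 0.50 (5). These dimmer sets include all 6 tested small-subunit sets below the floor on failing 2a, so their medians rest largely on that array. Without it, their log2 fold changes ran from −0.33 to 0.64 at 363.3 to 936.6. In the dimmest range they ran from −1.05 to 3.67, the highest (RPS16) with control 1a at the floor. The gap is a description of these members, with no test, since probe sets of a gene share a target and the arrays are few.

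**Figure D1:**
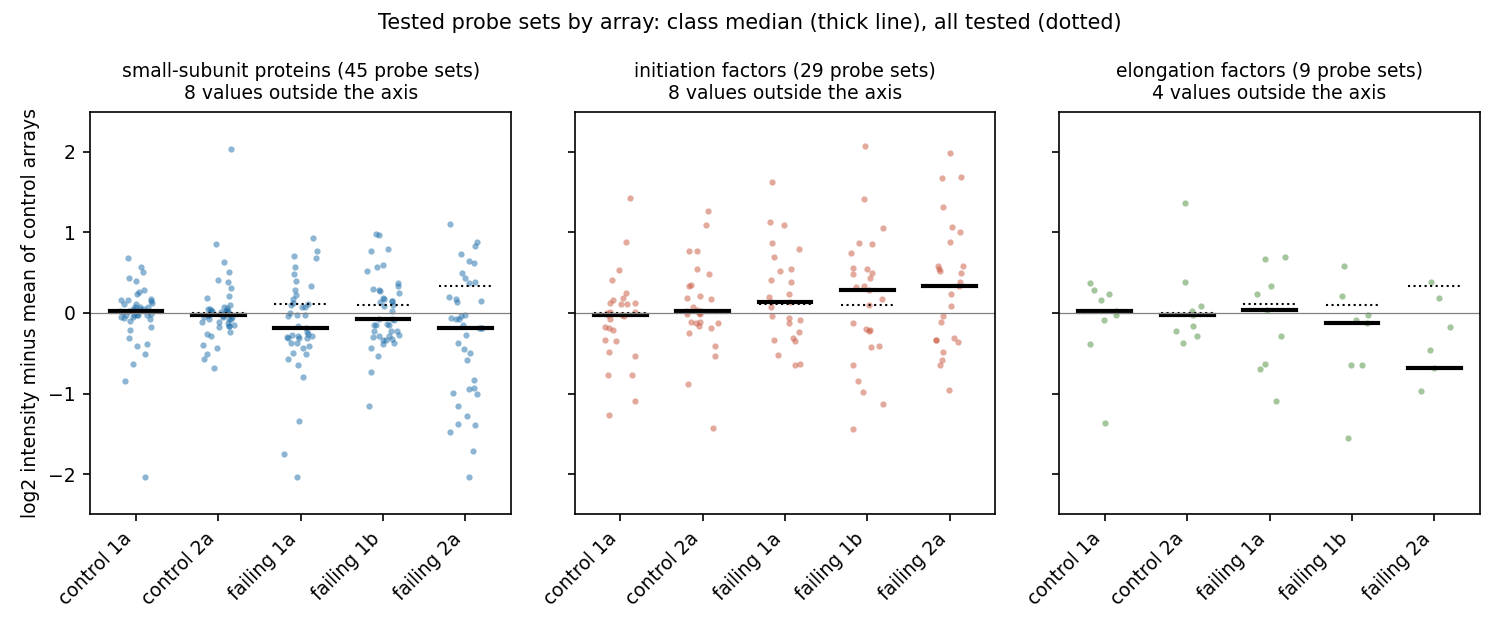
Log2 intensity of each tested probe set minus its mean on the control arrays, by array, for small-subunit proteins, initiation factors and elongation factors. Thick lines are class medians and dotted lines the median of all tested probe sets: small-subunit medians lie at −0.19, −0.07 and −0.19 on the failing arrays, initiation factor medians at 0.13, 0.29 and 0.33, and the number of points beyond the axis stands above each panel.

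Elongation factors rested most on a single array. Their median was 0.04 on failing 1a, −0.13 on failing 1b and −0.68 on failing 2a, where 3 of the 9 tested probe sets fell below the floor. It was −0.19 without failing 2a and −0.05 over the 6 probe sets above the floor on all arrays. The same restriction gave −0.12 for 39 small-subunit and 0.18 for 26 initiation factor probe sets, beside 0.16 for all 1877 such probe sets.

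A second view counts probe sets whose groups do not overlap. Among small-subunit proteins 2 of 45 (4.44%) lay above both control arrays on all failing arrays and 8 (17.8%) lay below, against 18.2% above and 11.5% below over all tested probe sets. Among initiation factors 7 of 29 (24.1%) lay above and 1 (3.45%) below. The 7 include EIF4G2, whose control values were both set to the floor. It passed the filter only through the failing arrays, so its place above control carries no weight. They also include EIF2AK2, an inhibitor of initiation. Of the 26 initiation factor sets above the floor on all arrays, 6 lay above and 1 below, EIF2AK2 still among the 6. The share below control also varies with brightness. Among the 575 brightest tested probe sets (intensities of 2387 and more), 21.9% lay below control and 19.7% above, while of the 27 small-subunit probe sets among them 7 (25.9%) lay below and 2 (7.41%) above. Failing 2a shaped these counts too. Without it 13 small-subunit probe sets lay above control and 12 below, against 27.9% and 21.1% of all probe sets. Of the initiation factor probe sets 10 lay above and 3 below, EIF4G2 again among the 10. With failing 1a and 1b averaged, 3 small-subunit probe sets lay above and 12 below (23.3% and 15.9% of all).

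Among the small-subunit proteins below control, RPS6 is the member that S6 kinases phosphorylate on growth signals. Its intensity was 3855 and 3096 in control against 2667, 2370 and 1418 in failing myocardium, here and below in the order control 1a, 2a and failing 1a, 1b, 2a. All failing arrays were lower, failing 2a most. The mean was 3475 ± 536 (SD, n = 2) in control and 2152 ± 653 (SD, n = 3) in failing myocardium (0.601-fold, log2 fold change −0.73 ± 0.36 SE, limma adjusted p = 0.59).

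RPS28, a small protein near the exit of the messenger, gave 5536 and 5450 in control and 4436, 4478 and 2727 in failing myocardium at HSPD1610_at. The control arrays lay close together and each failing array lay lower (log2 fold change −0.54 ± 0.29 SE, adjusted p = 0.629). The other RPS28 set gave 2335 and 1343 against 1246, 1604 and −1612. There the groups overlapped, and failing 2a was below the floor.

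RPS15A and RPS23 each had 2 tested probe sets below 0. For RPS15A, HSPD1327_at read 15316 and 14217 in control and 12321, 10894 and 12955 in failing myocardium (log2 fold change −0.30 ± 0.16 SE, adjusted p = 0.645). Its second set gave −0.57 ± 0.36 with overlapping groups. RPS23 sits in the decoding centre and bears on the accuracy of translation. At HSPD111_g_at it read 4873 and 4120 against 3643, 3817 and 2253 (−0.51 ± 0.31 SE, adjusted p = 0.676), and its second set gave −0.27 ± 0.45. At both genes 1 of the 2 sets had groups without overlap.

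RPS14, which is needed to mature the RNA of the small subunit and is lost in a form of anemia, showed how far probe sets of a gene can part. HSPD1089_r_at read 43878 and 47352 in control and 7207, 20399 and 39879 in failing myocardium. The failing arrays were all lower but far apart, failing 2a being near control (log2 fold change −1.34 ± 0.70 SE, adjusted p = 0.619, and −1.91 without failing 2a). HSPD1089_s_at read 14299 and 14864 against 14344, 16594 and 16738, a log2 fold change of 0.12 ± 0.16. RPS15 read 2782 and 2656 against 2106, 2448 and 2564 (−0.20 ± 0.24 SE, adjusted p = 0.835), a small distance beside the spread of the failing arrays. RPS21 (HSPD1289_s_at, −0.13 ± 0.18) and RPS13 (HSPD28936_s_at, below the floor on failing 2a) completed the 8 sets below control. RPS21 is named to complete the count, after its values were seen.

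RPS9, which helps shape the messenger's path on the small subunit, stood on the other side. HSPD3190_g_at read 4853 and 4972 in control and 7885, 7066 and 10528 in failing myocardium. Every failing array was above control (1.70-fold, log2 fold change 0.77 ± 0.23 SE, adjusted p = 0.41). The other probe set of RPS9 read 1122 and 436.3 against 402.4, 1063 and 363.7, with overlapping groups (−0.38 ± 0.76). The second set above control, HSPD368_f_at of RPS2, had 0.41 ± 0.26, while the 2 other sets of RPS2 had 0.17 ± 0.53 and −0.35 ± 0.57.

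Several small-subunit members differed little between the groups. RPS3, a protein at the entry of the messenger that also acts in DNA repair, had 10819 ± 725 (SD) in control and 10604 ± 1948 in failing myocardium at its bright probe set, with a log2 fold change of −0.05 and a 95% interval from −0.59 to 0.50. RPS19, the gene most often mutated in Diamond-Blackfan anemia, had −0.09, with an interval from −0.71 to 0.52. RPS20 had −0.02 at HSPD190_i_at, with an interval from −0.72 to 0.67, and −1.60 ± 1.93 on floored values at HSPD190_s_at. At these 3 sets with intervals the difference was within the spread of the arrays, and the intervals leave room for changes in both directions. RPS19 and RPS20 are named after their values were seen.

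**Figure D2:**
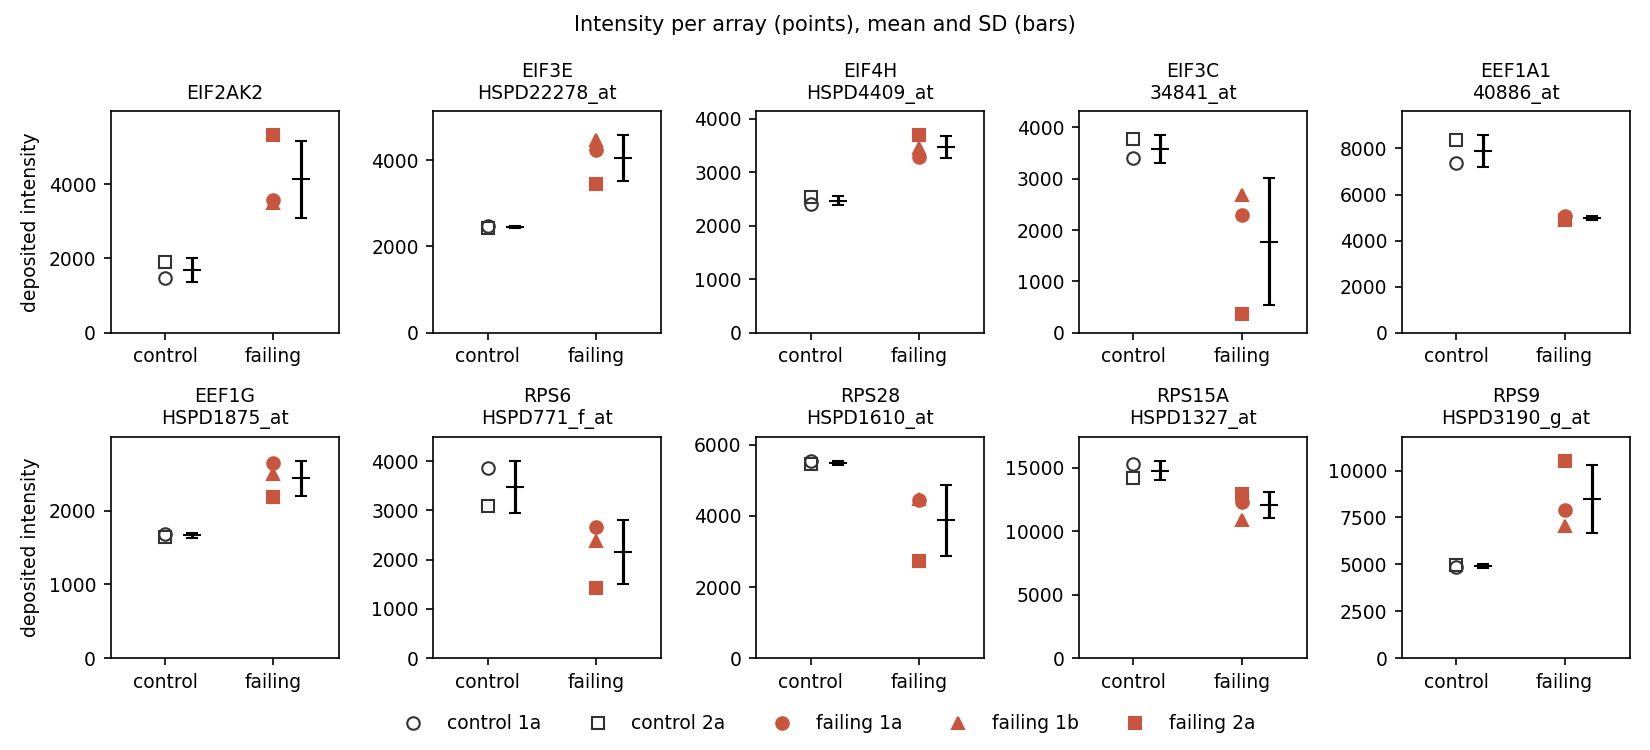
Deposited intensity of 10 member probe sets on each control (open) and failing (filled) array, with mean and SD beside the points; each axis starts at 0. EIF2AK2, EIF3E, EIF4H, EEF1G and RPS9 lie above control on all 3 failing arrays, and EIF3C, EEF1A1, RPS6, RPS28 and RPS15A below.

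Among the initiation factors and their regulators, EIF2AK2 was the clearest of those above the floor on all arrays. It encodes PKR, a kinase induced by interferon that phosphorylates eIF2 and so slows initiation. Its intensity was 1471 and 1915 in control and 3582, 3499 and 5325 in failing myocardium. All failing arrays lay above both control arrays, by more than the control arrays differed from each other. The difference was 2.42-fold (log2 fold change 1.27 ± 0.30 SE, 95% interval from 0.52 to 2.03, adjusted p = 0.305). Its adjusted p lay between 0.131 and 0.764 over all alternatives. The target of PKR, the eIF2 alpha subunit EIF2S1, read 321.8 and 622.3 against 408.9, 337.1 and 1445. Only failing 2a was high, and the log2 fold change of 0.38 ± 0.85 turned to −0.27 without that array.

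EIF4G2, a relative of eIF4G that lacks the cap-binding partner's site and serves internal and stress-related initiation, read −21.2 and −52.4 in control and 629.8, 484 and 742.7 in failing myocardium at HSPD3291_f_at. With both control values set to the floor, no fold is given, and the set passed the filter only through the failing arrays, where it is high. The difference of floored log2 values was 4.93 (adjusted p = 0.305). A limma fit without the intensity trend gave an adjusted p of 0.0201, but the floored control values are equal by construction, so neither p supports a difference. The set was no longer tested with a floor of 5, with a filter on the group means or without any one of the failing arrays. Its other probe set was below the floor on every array.

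The remaining eIF4 members, which bind or unwind the capped end of the messenger, went both ways. EIF4H, a helper of the eIF4A helicase, read 2410 and 2532 in control and 3282, 3453 and 3695 in failing myocardium. Both groups were tight and all failing arrays were higher, 1.41-fold (log2 fold change 0.49 ± 0.21 SE, adjusted p = 0.533). EIF4G1, the scaffold that joins the cap-binding protein to the ribosome, read 1834 and 2975 against 1878, 1186 and 1661 (−0.59 ± 0.37 SE, adjusted p = 0.681). EIF4A1, a form of the helicase itself, had −0.81 ± 0.55 (−0.04 without control 2a, which read 2526 against 769.6 to 959.6 on the other arrays). Its paralog EIF4A2 gave 0.23 ± 0.16 at 1 probe set, above control on all failing arrays, and −0.62 ± 0.39 at HSPD2632_at. Of 7 tested eIF4 probe sets, 4 lay above 0.

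Of the eIF3 complex, which holds the initiation complex together, 10 probe sets of 6 genes were tested, 5 above 0 and 5 below. EIF3E lay above control at both of its probe sets. At HSPD22278_at it read 2471 and 2429 in control and 4226, 4469 and 3454 in failing myocardium, 1.64-fold (log2 fold change 0.72 ± 0.23 SE, adjusted p = 0.443). At HSPD22278_g_at it read 493.6 and 504.1 against 652.1, 628.8 and 723.5 (0.42 ± 0.47). The groups did not overlap at either set.

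EIF3C, a core scaffold subunit, went the other way, with 3394 and 3770 in control and 2297, 2673 and 356.2 in failing myocardium. Failing 2a was far below the other failing arrays. The log2 fold change of −1.46 ± 0.93 (SE, adjusted p = 0.683) was −0.53 without that array. The other tested eIF3 genes had overlapping groups: EIF3G had 0.13 ± 0.49, EIF3K 0.23 ± 0.48 and −0.04 ± 0.26, EIF3L 0.50 ± 1.42 and −1.38 ± 1.41, and EIF3B −0.06 ± 0.36 and, on floored values, −3.04. The eIF3 subunits therefore showed no common direction.

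Factors that pick the start codon also varied by probe set. EIF1, which guards start codon choice, had 4 tested sets. Of these, 3 had log2 fold changes of −0.10 ± 0.27, −0.05 ± 0.23 and 0.07 ± 0.37, and HSPD3875_g_at had 1.59 ± 0.91 with 107.9 on control 1a and 624.1 on control 2a. EIF5, which triggers the step after the start codon is found, read 436.9 and 248 against 531.8, 594.5 and 604 (0.81 ± 0.59 SE, adjusted p = 0.739) and is named after its values were seen. Its failing arrays all lay above control.

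**Figure D3:**
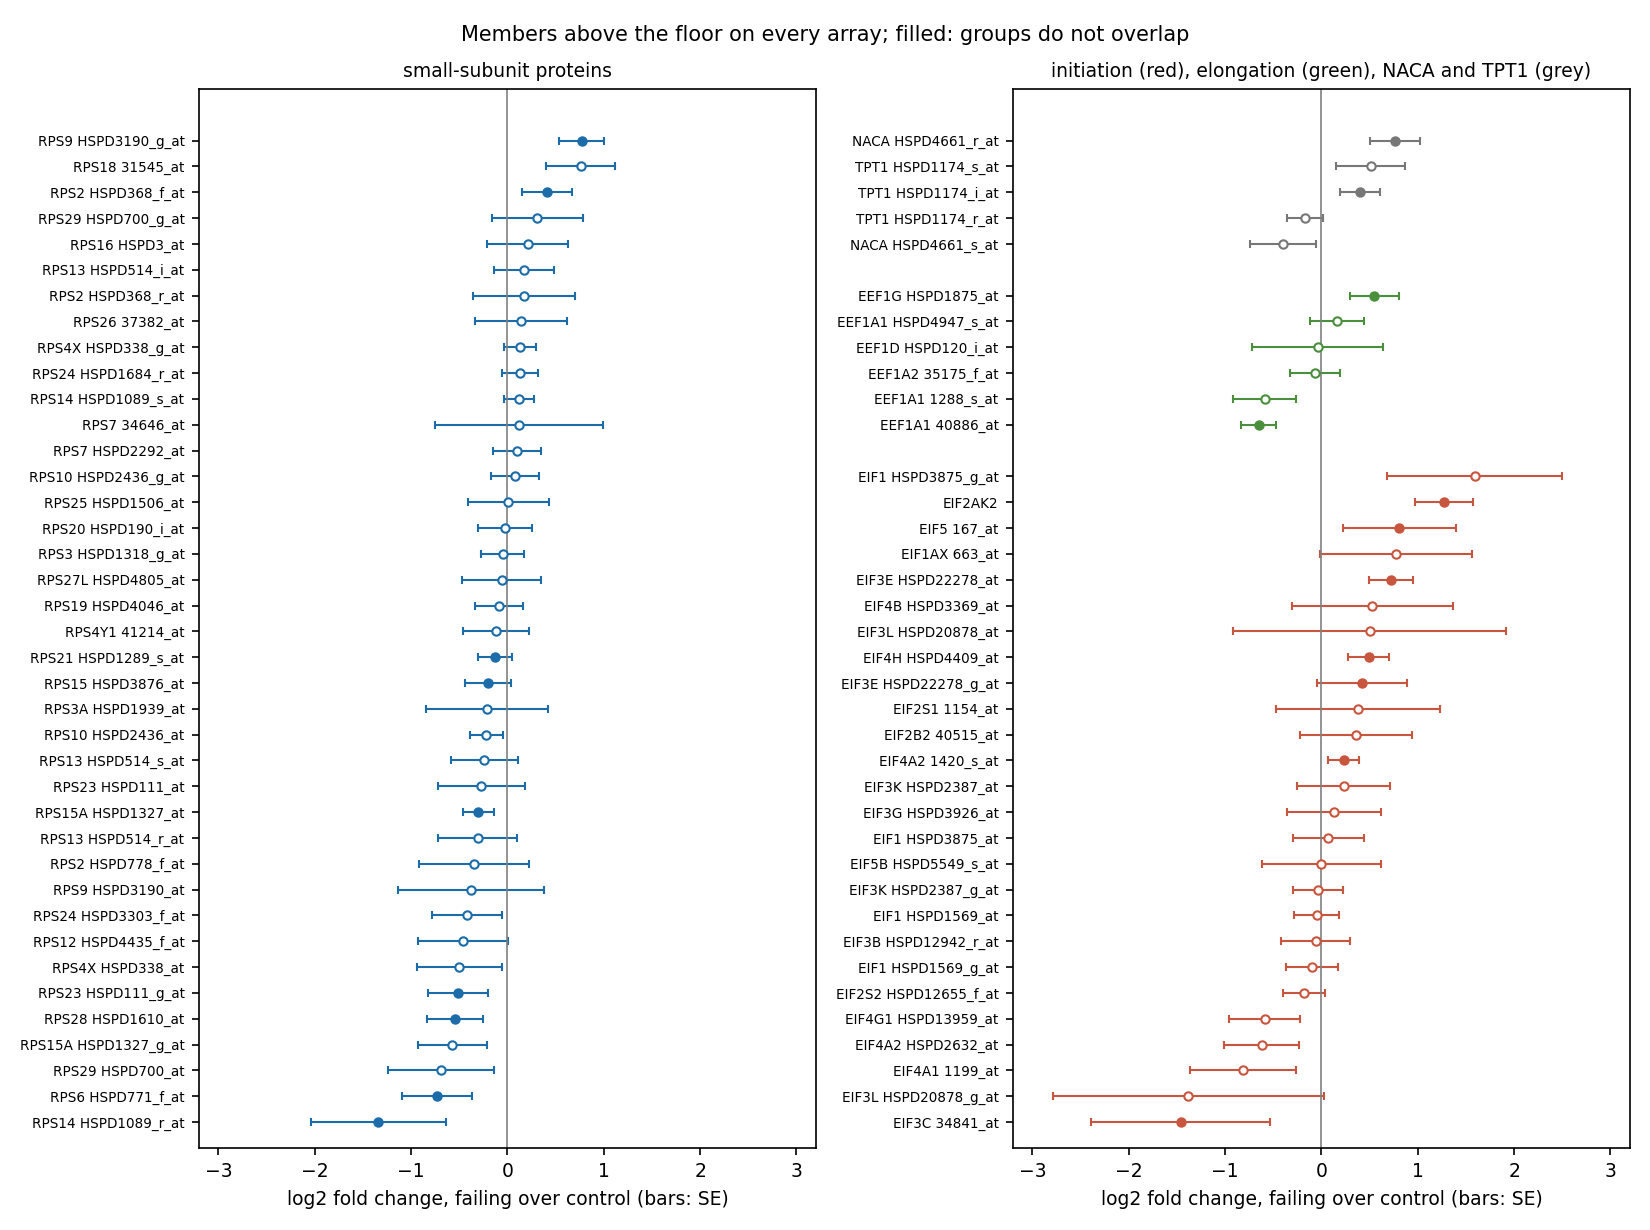
Log2 fold change (failing over control) with its standard error for the member probe sets above the floor on all arrays, 39 of small-subunit proteins on the left and those of initiation factors, elongation factors, NACA and TPT1 on the right. Filled points mark probe sets whose groups do not overlap: 7 small-subunit sets below 0 and 2 above, and 1 initiation factor set below and 6 above.

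EEF1A1 and EEF1A2 encode the 2 forms of the factor that delivers transfer RNA, EEF1A2 being the form of heart, skeletal muscle and brain. EEF1A1 at the first of 3 probe sets read 7390 and 8373 in control and 5067, 5034 and 4904 in failing myocardium. The failing arrays lay within a narrow band below both control arrays, failing 2a included. The difference was 0.636-fold (log2 fold change −0.65 ± 0.18 SE, 95% interval from −1.09 to −0.21, adjusted p = 0.344). The second set read 8162 and 5572 against 4180, 6183 and 3455 (−0.59 ± 0.33), and the third, HSPD4947_s_at, read 2100 and 1680 against 2357, 1853 and 2121 (0.16 ± 0.28, −0.04 under both other scalings). Only the first set had groups without overlap.

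EEF1A2 read 38420 and 28046 in control and 33864, 37852 and 23894 in failing myocardium. The groups overlapped (log2 fold change −0.07 ± 0.26 SE, 95% interval from −0.73 to 0.59, and 0.28 after quantile normalization). EEF1A1 and EEF1A2 are close paralogs, so how far their probe sets share signal is uncertain.

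The eEF1B complex recharges eEF1A with GTP. EEF1G, its gamma subunit, read 1690 and 1642 in control and 2644, 2498 and 2181 in failing myocardium. Each failing array was above control (1.46-fold, log2 fold change 0.55 ± 0.25 SE, adjusted p = 0.582). EEF1D, the delta subunit, had 3 sets: HSPD120_r_at read 1042 and 1071 against 495.4, 361.5 and −2020, while the other sets overlapped and read 322.8 to 816.1 (HSPD120_i_at) and −127.7 to 741.1 (HSPD120_s_at). EEF1B2, the beta subunit, read 426.4 and 2848 against 1291, 160.3 and −842.5, with the control arrays far apart. EEF2, the factor that moves the ribosome along, was too dim to be tested, with 409.6 and 49.8 against −1014, 46.8 and −2400. The eEF1B subunits lay on both sides of 0, and EEF2 was above the floor on 3 of the 5 arrays.

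NACA and TPT1 belong to the messengers with a 5′ TOP motif. NACA, the alpha subunit of the complex that shields new chains as they leave the ribosome, read 1850 and 1601 against 2545, 3390 and 2900 at HSPD4661_r_at (0.76 ± 0.26 SE, adjusted p = 0.466), all failing arrays being higher. At HSPD4661_s_at it read 2146 and 2822 against 1699, 2539 and 1516 (−0.40 ± 0.34), the opposite direction. TPT1, the translationally controlled tumor protein, read 12213 and 10923 against 18400, 14937 and 12782 at HSPD1174_i_at, above control on every failing array (0.40 ± 0.21 SE, adjusted p = 0.624). Its 2 other sets overlapped, with 0.51 ± 0.36 and −0.17 ± 0.19, and 4 further probe sets that carry TPT1 beside a second symbol are no members. Neither gene had all its probe sets on one side.

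Disagreement between probe sets was common. Of 26 member genes with over 1 tested probe set, 17 had sets with opposite signs and 9 had a common sign, and the median distance between the highest and lowest log2 fold change of a gene was 1.07. Over all genes of the table with several tested sets, 184 of 357 had opposite signs, a smaller share than among the members. Their median distance was 1.04, close to the members' 1.07. The number of tested sets per gene, which bears on both measures, was not matched. In the small-subunit class 10 of 15 genes had opposite signs, among them RPS10 (0.08 and −0.22), RPS24 (0.13 and −0.42), RPS29 (0.31 and −0.69), RPS4X (0.13 and −0.50), RPS26 (0.14 and −2.34) and RPS7 (0.12, 0.10 and −0.91). RPS13 had values of −2.20, −0.31, −0.24 and 0.17 at its 4 sets. The distance was smaller where all sets of a gene were above the floor, with a median of 0.77 over 17 genes. Ribosomal protein genes have many processed pseudogenes of nearly the same sequence, so a single probe set of theirs is uncertain.

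**Figure D4:**
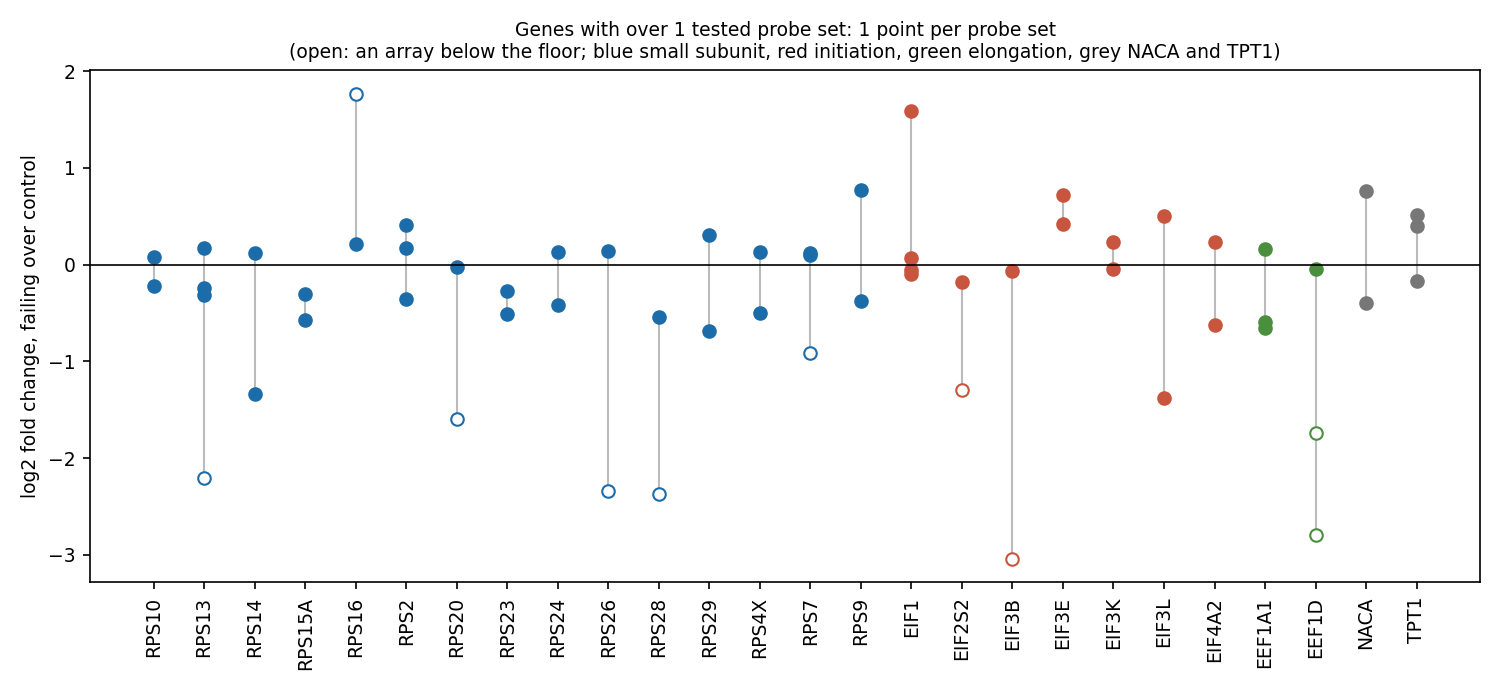
Log2 fold change (failing over control) of each tested probe set, for the 26 member genes with over 1; a line joins the probe sets of a gene and open points had an array below the floor. In 17 of the 26 genes the points lie on both sides of 0.

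Other parts of the translation apparatus are given for comparison. Over 58 tested probe sets of large-subunit proteins the median was −0.45, with 3 (5.17%) above control and 24 (41.4%) below on all failing arrays, against 18.2% and 11.5% of all tested probe sets. Without failing 2a that median was −0.29. Among 21 tested sets of TOP messengers that encode no ribosomal protein, 7 (33.3%) lay above control and 2 (9.52%) below, with a median of −0.04, and 16 of the 21 are members of the set. Outside the members, PABPC1, which binds the poly(A) tail and helps initiation, read 1170 and 1666 against 3672, 3250 and 3443, 2.47-fold (log2 fold change 1.31 ± 0.27 SE, adjusted p = 0.305). Of 5 tested sets of growth signaling genes, AKT1 (1.36 ± 0.66) and PPP1CA at 1 of its 2 sets (0.77 ± 0.31) lay above control. Over 10 sets of ribosome assembly genes the median was −0.06, with 2 above and 3 below, over 5 of the mitochondrial small subunit −0.36, with 0 above and 1 below, and over 4 of transfer RNA ligases −1.08, with 0 above and 1 below. In these lists 0 probe sets passed the adjusted limma threshold. At an unadjusted p under 0.05, 0 large-subunit sets were higher and 9 (15.5%) lower, against 6.13% and 3.35% of all tested probe sets. Of the rest, 3 TOP sets were higher and 1 lower, and 1 assembly set was lower, while of the other lists only PABPC1 passed, which both the TOP list and the list of poly(A) binding hold.

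The 24 members that were not tested had intensities between −11482 and 1743, and 6 of them were below the floor on all arrays. They leave 10 genes with no tested probe set: EEF2, EIF2B1, EIF3A, EIF3F, EIF3H, EIF3I, EIF4E3, EIF4EBP1, RPS26P52 and RPS27. EIF4EBP1, the inhibitor that releases the cap-binding protein when growth signals phosphorylate it, read −986.8 and −1738 against 578.3, −1873 and −2470. The sets of EIF3F (−953 to −11482) and EIF3I (−553 to −1945) were below 0 on every array. The 10 genes had a mean log2 intensity under that of the filter, which for some, such as EIF3H with 55.1 and 66.5 against 381.1, 445.3 and −981, still left values above the floor on most arrays.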

How the data were processed

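The authors deposited 1 linear intensity per probe set and array, and how it was made is not given in the sources used here. The values show a common scale, with a trimmed mean of 800 per array (2% removed at each end). Of 4653 probe sets, 52 are array controls and stayed out of the tests. The platform annotation, which names human genes, pairs 3724 of the remaining 4601 with 1 symbol, 72 with several and 805 with none. Columns of other samples numbered 0.

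Intensities were raised to 20 and put on the log2 scale. The 2301 probe sets at or above the median mean (log2 7.13) were fitted one by one with limma 3.58.1 in R 4.3.3 (lmFit, eBayes with a trend), two-sided, with Benjamini-Hochberg adjustment over all 2301 and a threshold of 0.05. Class medians were computed in Python 3.11.15 and have no test. Members and lists were chosen with earlier results of these data known. Named were members past the threshold, up to 8 per direction with the smallest p among those without overlap, 27 listed translation genes (20 on the array), tested eIF3 subunits, the brightest and dimmest 5, and genes whose probe sets differed in sign. The titles share the numbers 1 and 2 between groups, and what these mark is not given, so the arrays were not paired. Deviations of same-numbered arrays from their group means had correlations of 0.011 to 0.051. The deviations of the 2 control arrays mirror each other by construction, so these correlations can hardly show or exclude a pairing. The 15 alternatives covered the floor, the filter, the scaling, the unit, the trend, failing 1a with 1b, the title number and each array.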

Additional observations from a re-analysis of the deposited data

How the results depend on the processing

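No member passed the adjusted threshold under 14 of the 15 alternatives, and 1 did without the intensity trend (EIF4G2, whose control values are both set to the floor, so that this supports nothing). Over all probe sets 2 passed; 4 did with a floor of 100, 6 with no filter, 6 without the trend, 1 with 1 probe set per gene, 0 with failing 1a and 1b averaged, 0 with the replicate block, and 0 to 21 without 1 array (21 without failing 2a, 0 without control 1a, failing 1a or failing 1b). In limma, 144 probe sets with the average and 315 with the replicate block had an unadjusted p under 0.05. A group left with 1 control array is assumed to vary like the other.

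The small-subunit median of −0.20 was −0.11 with no filter, −0.27 after quantile normalization, −0.40 with 75th percentile scaling, −0.12 with 1 probe set per gene, and −0.22 to −0.10 without 1 array. The initiation factor median of 0.13 was −0.07 with 75th percentile scaling and 0.30 with 1 probe set per gene. The elongation factor median of −0.59 was −0.07 with 1 probe set per gene and −0.66 to −0.19 without 1 array. The gap of 0.34 between initiation factors and small-subunit proteins was 0.18 with no filter, 0.19 with the average, 0.20 with the replicate block and 0.24 to 0.35 without 1 array. Small-subunit sets above control (2) numbered 4 after quantile normalization, 1 with 75th percentile scaling, 1 with 1 probe set per gene and 2 to 13 without 1 array; those below (8) numbered 13 with 75th percentile scaling and 9 to 13 without 1 array. Initiation factor sets above control (7) numbered 6 to 12 without 1 array; those below (1) numbered 4 under both other scalings, 3 with the average and 1 to 7 without 1 array. The shares over all tested probe sets moved too. Those above (18.2%) were 13.5% after quantile normalization, 12.1% with 75th percentile scaling, 19.5% with 1 probe set per gene and 24.9% to 30.9% without 1 array. Those below (11.5%) were 14.9% and 16.9% under the 2 scalings, 15.9% with the average and 15.2% to 21.0% without 1 array. Groups that do not overlap stay so when an array is left out or 2 of a group are averaged. Among the same probe sets, these shares can then only stay or rise. The cause of the other moves was not tested.

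Of 66 named tested sets, not all were tested in each alternative (37 with 1 probe set per gene and 62 without failing 2a). In every alternative that tested them, 34 kept their direction and side of the threshold, while 31 turned sign at least once. After quantile normalization these were RPS10 HSPD2436_at at 0.02 and HSPD2436_g_at at −0.10, RPS2 HSPD368_r_at −0.02, RPS26 (the set above the floor) −0.05, RPS7 (the set with no HSPD name) −0.07 and HSPD2292_at −0.01, EIF1 HSPD1569_g_at 0.07, EIF3G HSPD3926_at −0.09, EEF1A1 HSPD4947_s_at −0.04, EEF1A2 0.28 and TPT1 HSPD1174_r_at 0.15. With 75th percentile scaling they were RPS10 HSPD2436_g_at at −0.12, RPS13 HSPD514_i_at −0.03, RPS14 HSPD1089_s_at −0.08, RPS2 HSPD368_r_at −0.03, RPS24 HSPD1684_r_at −0.07, RPS26 (the set above the floor) −0.06, RPS4X HSPD338_g_at −0.07, RPS7 (the set with no HSPD name) −0.09 and HSPD2292_at −0.10, EIF1 HSPD3875_at −0.13, EIF3G HSPD3926_at −0.07 and EEF1A1 HSPD4947_s_at −0.04. With failing 1a and 1b averaged they were RPS2 HSPD368_r_at at −0.08, RPS7 (the set with no HSPD name) −0.14, EIF1 HSPD3875_at −0.09 and EIF3B HSPD12942_r_at 0.05. With the replicate block they were RPS7 (the set with no HSPD name) at −0.11, EIF1 HSPD3875_at −0.05, EIF3B HSPD12942_r_at 0.05 and EIF3G HSPD3926_at −0.0047.

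Leaving out 1 array gave ranges across 0 for RPS10 HSPD2436_g_at (−0.09 to 0.26), RPS13 HSPD514_i_at (−0.06 to 0.38), HSPD514_r_at (−0.94 to 0.32) and HSPD514_s_at (−0.62 to 0.13), RPS2 HSPD368_r_at (−0.13 to 0.67) and HSPD778_f_at (−0.70 to 0.21), RPS24 HSPD1684_r_at (−0.01 to 0.28) and HSPD3303_f_at (−0.93 to 0.09), RPS26 (the set above the floor) (−0.20 to 0.45), RPS29 HSPD700_g_at (−0.21 to 0.82), RPS3 HSPD1318_g_at (−0.13 to 0.12), RPS7 (the set with no HSPD name) (−0.46 to 0.69) and HSPD2292_g_at (−1.86 to 0.84), and RPS9 HSPD3190_at (−1.06 to 0.30). The same held for EIF1 HSPD1569_at (−0.17 to 0.09), HSPD1569_g_at (−0.34 to 0.15) and HSPD3875_at (−0.17 to 0.39), EIF2S1 (−0.27 to 0.86), EIF3B HSPD12942_r_at (−0.41 to 0.28), EIF3G HSPD3926_at (−0.40 to 0.66), EIF3K HSPD2387_at (−0.31 to 0.77) and HSPD2387_g_at (−0.16 to 0.05), EIF3L HSPD20878_at (−0.93 to 1.92), EEF1A2 (−0.30 to 0.16) and EEF1D HSPD120_i_at (−0.41 to 0.34). Dim members are limited by values below 0, which carry no level.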
